A study of Mus musculus with 5 samples.

Results

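Mouse epiblast stem cells (EpiSCs) that had been differentiated with 0.75 ng/ml FGF2 were compared with those that had received 3 ng/ml, a step in the middle of a dose series, referred to as the lower and the higher dose. A cell entered the comparison if its barcode had at least 2500 detected genes and at most 10% of its unique molecular identifiers (UMIs, each standing for 1 captured RNA molecule) in mitochondrial genes. These limits left 2725 of 3829 barcodes at the lower dose and 2125 of 3067 at the higher dose, or 4850 of the 10653 cells that passed them in the whole series. EpiSCs are pluripotent cells taken from the post-implantation epiblast, and a single wild-type line was used. The study asked how FGF dose changes the range of mesodermal cell types that form. Cells of every library were kept for 3 days in N2B27 medium with 1 µM of the Wnt agonist Chi (written CHIR99201 in the labels) and with BMP4 at 8 ng/ml, so both groups shared these factors and differed in the labelled dose of FGF2. The other libraries of the series were made without FGF2, with 12 ng/ml FGF2, or with the FGFR inhibitor AZD4547 at 30 nM (FGFRi), for which no FGF2 dose is stated. Their values are given for orientation.

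FGF ligands bind FGF receptors at the cell surface and activate the ERK kinase cascade, which switches on target genes that include feedback inhibitors of the Spry and Dusp families. In the gastrulating embryo, FGF signaling acts with Wnt and Nodal in the primitive streak, where epithelial epiblast cells activate T/Bra, leave the epithelium by an epithelial-to-mesenchymal transition (EMT), exchange E-cadherin for N-cadherin and move away as mesoderm. Loss of FGF signaling at this stage is known to impair paraxial mesoderm in particular, whereas BMP favors proximal and extraembryonic types.

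The retained cells held 81538748 UMIs at the lower dose and 64607114 at the higher dose, with medians of 27505 and 28527 UMIs and of 5200 and 5312 detected genes per cell. Over the 5 libraries, retained cells carried 95.3% to 97.3% of the deposited UMIs. The pair of libraries had 1 cell barcode in common. Levels are given as CPM, the UMIs of a gene after the retained cells of a library are scaled to 1000000 UMIs in all, ratios of levels with exact conditional 95% intervals and shares of cells with exact binomial 95% intervals. These intervals cover counting error only. There was 1 library per dose, so no test was possible, and what differs with the dose cannot be told apart from what differs between 2 cultures. The labels call the cells EpiSC, but the pluripotency gene Nanog was at 1.88 CPM with the lower and 1.72 CPM with the higher dose, while T reached 92.7 CPM with the lower and 205 CPM with the higher dose. The pluripotency factor gene Sox2 was at 34.7 and 33.3 CPM.

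Most genes had close to the same level at both doses. Of 3011 genes that reached 50 CPM in either library, 75.6% lay within 1.1-fold and 98.1% within 1.5-fold. A ratio of at least 2 was found for 13 genes, 0.432% of those measured. Higher at 3 ng/ml were 4 genes (0.133%), namely Fst, Sprr2a3, T and Fgf8. Lower at 3 ng/ml were 9 genes (0.299%), namely Tagln, Hspb1, Mt2, Mt1, Igfbp2, Ahnak, Krt18, Wnt6 and Wnt4. At a ratio of 1.5, 20 genes (0.664%) were higher and 37 (1.23%) lower. Lowering the minimum to 10 CPM gave 27 genes (0.336%) higher and 42 (0.523%) lower by at least 2-fold. By the first rule, 46 of 3040 genes (1.51%) differed between no FGF2 and 0.75 ng/ml, and 0 of 2978 (0.0%) between 3 and 12 ng/ml. These comparisons share libraries with the one described here.

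**Figure D1:**
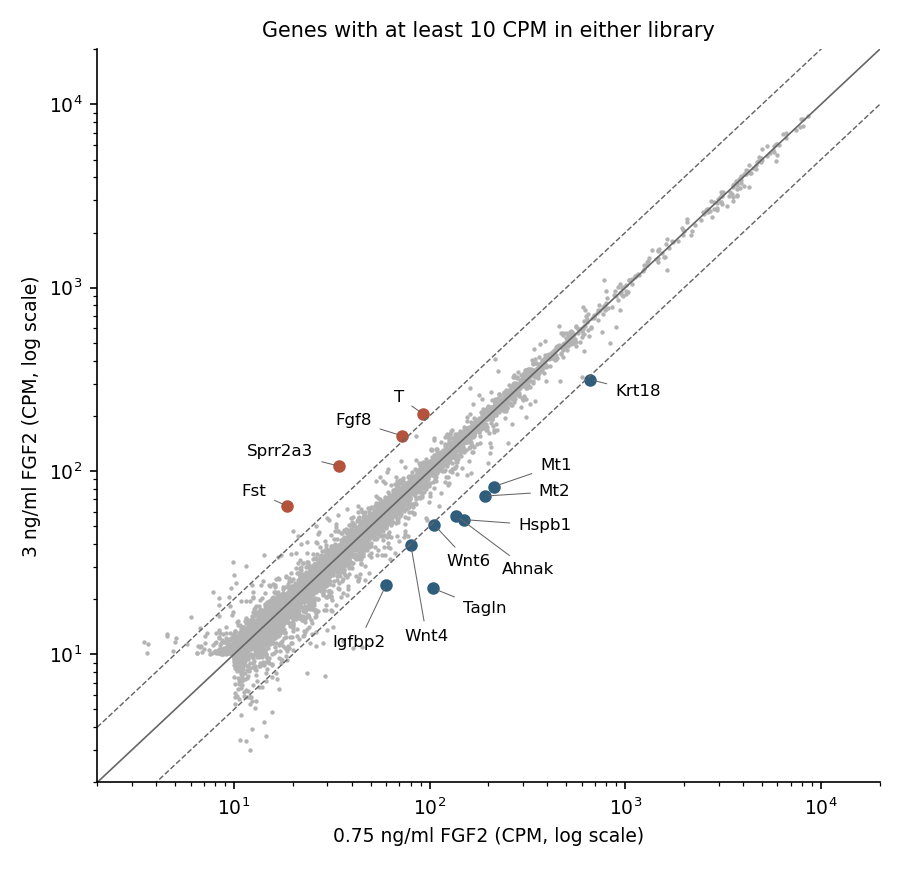
Level of each of the 8036 genes that reached 10 CPM in either library at 0.75 ng/ml FGF2 (horizontal axis, CPM, log scale) and at 3 ng/ml (vertical axis, CPM, log scale). The solid line marks equal levels and the dashed lines a ratio of 2. The 4 genes in red lie above the upper and the 9 genes in blue below the lower dashed line, while most other genes lie near the line of equal levels.

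T encodes Brachyury, the T-box transcription factor of the primitive streak and nascent mesoderm. Its level was 0.753 CPM with the FGFRi, 26.7 without FGF2, and 92.7, 205 and 208 at 0.75, 3 and 12 ng/ml. T was therefore at its lowest with the inhibitor, and the step from 0.75 to 3 ng/ml brought it to within 1.02-fold of the level at 12 ng/ml. At 3 ng/ml it was higher than at 0.75 ng/ml by 2.21-fold (95% interval 2.15 to 2.27), on counts of 7555 and 13221 UMIs. Of 9 genes listed for the primitive streak and nascent mesoderm, 4 had at least 10 CPM in either library, and each of the 4 was at least 1.5-fold higher at 3 ng/ml. Of these, 2 (Mixl1 and Mesp1) reached 10 CPM only at 3 ng/ml, so they entered through the library in which they were higher. Over all 8036 genes with 10 CPM, 1.08% were higher and 2.18% lower by 1.5-fold, and the median log2 ratio was 0.02. Its quartiles were -0.08 and 0.10. Since the median was positive, more genes were higher than lower at 3 ng/ml, the background for counts by direction alone. The homeobox gene Mixl1, which marks cells passing through the streak, was at 7.82 CPM with the lower and 22 CPM with the higher dose, higher by 2.81-fold (95% interval 2.55 to 3.09). Mesp1, a transcription factor gene of the earliest mesoderm, was at 8.38 CPM with the lower and 13.5 CPM with the higher dose, and Evx1, a homeobox gene of the posterior streak, was at 23.5 CPM with the lower and 35.8 CPM with the higher dose. The transcript Evx1os, which lies antisense to Evx1 and overlaps it, had a ratio of 1.77 against 1.52 for Evx1, and reads of such a pair may be hard to separate. The other 5 members stayed below 10 CPM in both libraries, the highest of them Lhx1 at 8.03 CPM with 3 ng/ml.

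T lies on the plus strand at chr17:8434423-8442496 (GRCm38). The 250 bases before its RefSeq start (GRCm38.p6, chr17:8434173-8434422) are shown because T is the streak gene on which the comparison turns and because all cultures carried a Wnt agonist, whose signal acts through TCF/LEF proteins. Capitals mark the only match, on either strand, to the 6 letters CTTTGA of the TCF/LEF site, which reads here as its reverse complement, 228 bases before the start.
T: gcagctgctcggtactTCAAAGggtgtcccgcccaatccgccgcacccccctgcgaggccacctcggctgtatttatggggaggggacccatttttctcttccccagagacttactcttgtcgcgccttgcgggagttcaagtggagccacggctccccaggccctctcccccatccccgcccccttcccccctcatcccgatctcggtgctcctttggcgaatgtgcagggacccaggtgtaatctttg
The same letters occur in 13.8% of 32851 promoters of this length, so the match is a description of the sequence and not a site shown to be used.

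The genes for FGF ligands formed the list with the highest median. The median log2 ratio over all 8036 genes with 10 CPM was 0.02, and 1.08% of them were higher by 1.5-fold. Of 10 ligand genes, 5 had at least 10 CPM, and all 5 were at least 1.5-fold higher at 3 ng/ml, with a median log2 ratio of 1.44. However, 2 of these, Fgf4 and Fgf15, reached 10 CPM only at 3 ng/ml. They entered the list through the library in which they were higher, which raised its count and its median. Fgf8, Fgf17 and Fgf3 reached 10 CPM in both libraries and had ratios of 2.16, 1.91 and 2.71. Fgf8, a ligand of the streak and tail bud, had 2.43 CPM with the FGFRi, 24.5 without FGF2, and 72.3, 156 and 160.4 at 0.75, 3 and 12 ng/ml. It was higher at 3 than at 0.75 ng/ml by 2.16-fold (95% interval 2.09 to 2.23) and close to level between 3 and 12 ng/ml (ratio 1.03). Fgf17, a relative of Fgf8 with similar receptor preference, was at 26.3 CPM with the lower and 50.4 CPM with the higher dose (ratio 1.91). Fgf4, the ligand that acts beside Fgf8 in the streak, was at 3.65 CPM with the lower and 11.4 CPM with the higher dose, higher by 3.12-fold (95% interval 2.72 to 3.58). Fgf3 was at 10.1 CPM with the lower and 27.2 CPM with the higher dose and Fgf15 at 4.54 CPM with the lower and 12.9 CPM with the higher dose, with ratios of 2.71 and 2.85. The ligand gene Fgf9, which did not reach 10 CPM, had nearly the same level at both doses (6.01 and 6.14 CPM).

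Receptors and adaptors did not follow the ligands. Of 12 genes, 8 were measured, 0 were higher by 1.5-fold and 1 was lower, and the median log2 ratio was -0.07. By the same limit, 1.08% of all 8036 genes with 10 CPM were higher and 2.18% lower. Fgfr1, the main receptor gene of the epiblast and early mesoderm, stood at 60.3 CPM with the lower and 61.9 CPM with the higher dose. The transmembrane protein gene Flrt3, whose product binds FGF receptors, was lower at 3 ng/ml by 1.51-fold (95% interval 1.4 to 1.62). Fgfr2, a receptor gene of epithelia, stayed under 10 CPM with 9.38 and 3.81 CPM.

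Target and feedback genes of the pathway differed by less than the ligands. All 13 listed genes were measured, 1 of them in 1 library only. At 3 ng/ml, 2 were at least 1.5-fold higher and 0 lower, and the median log2 ratio was 0.24. Over all 8036 genes with 10 CPM this median was 0.02, and 1.08% were higher and 2.18% lower by 1.5-fold. The members past that ratio were the ETS transcription factor genes Etv1 (from 8.11 to 13.1 CPM) and Etv4 (from 26.5 to 40.5 CPM). Just under it lay Dusp4 (from 42.9 to 64.2 CPM), which encodes a phosphatase of ERK, and Spry4 with 1.45 (from 13.6 to 19.7 CPM). Dusp6, the ERK phosphatase gene most used as a readout of FGF signaling, had a ratio of 1.06. The feedback inhibitor gene Spry1 was lower at 3 ng/ml (from 15.8 to 11.6 CPM, ratio 0.735), as were Dusp5 (0.784) and Spry2 (0.872). Feedback genes therefore lay on both sides of equal levels. Of 11 immediate early genes, which respond within minutes to growth factors and to stress, 6 were measured, 2 of them in 1 library only, and all 6 were lower at 3 ng/ml, 3 by at least 1.5-fold. These were Atf3 (from 14.6 to 7.18 CPM), Junb (from 43 to 25.1 CPM) and Jun (from 43.8 to 26.2 CPM), whose levels without FGF2 had been 26.3, 67.2 and 97.3 CPM. From 3 to 12 ng/ml, the median log2 ratio of the 6 measured immediate early genes was 0.34, in the upward direction.

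**Figure D2:**
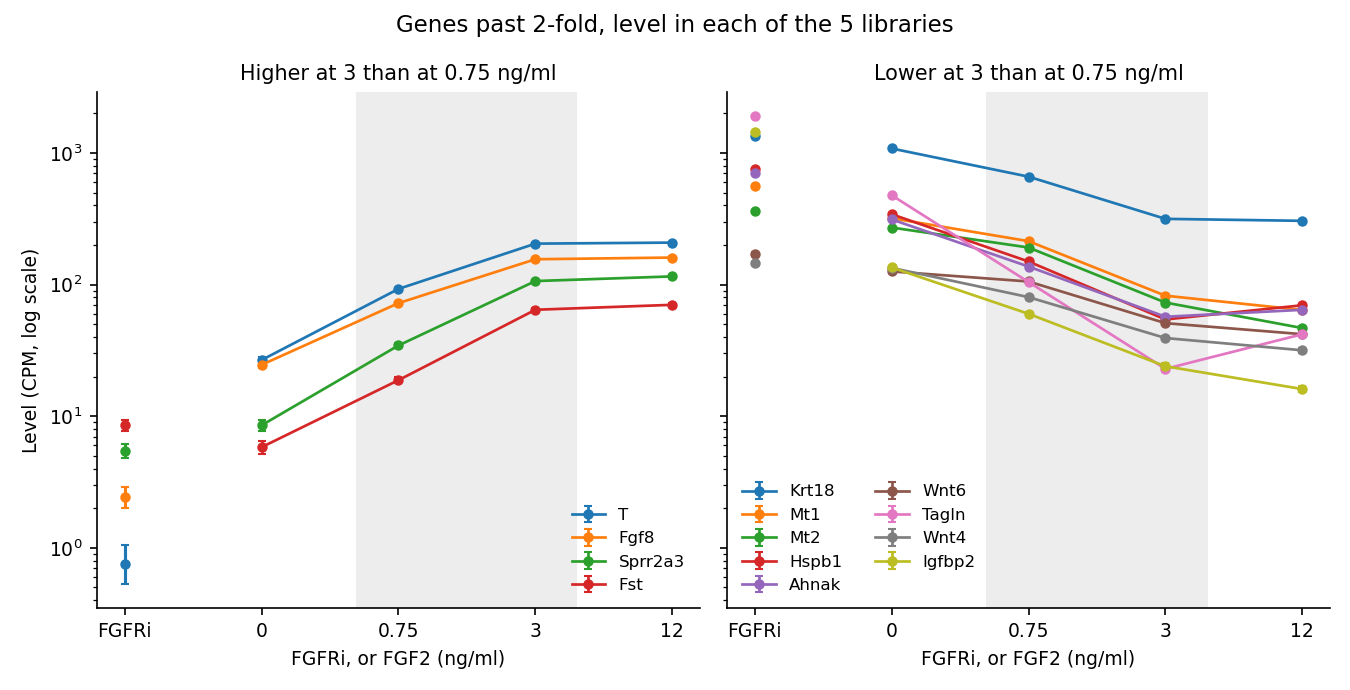
Level (vertical axis, CPM, log scale) of the 13 genes with a ratio of at least 2 in each of the 5 libraries, with the FGFRi library set apart from the FGF2 doses in ng/ml (horizontal axis). Points are single libraries, bars are exact Poisson 95% intervals and the gray band marks the compared doses. The 4 genes on the left are lowest with the FGFRi or without FGF2 and stay within 1.1-fold between 3 and 12 ng/ml, whereas Tagln on the right is higher at 12 than at 3 ng/ml.

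The highest ratio belonged to Fst, which encodes follistatin, a secreted antagonist of Activin and of some BMPs. Its level was 8.53 CPM with the FGFRi, 5.81 without FGF2, and 18.8, 64.3 and 70.2 at 0.75, 3 and 12 ng/ml. Fst was higher at 3 than at 0.75 ng/ml by 3.43-fold (95% interval 3.23 to 3.64), the steepest difference upward among genes with at least 50 CPM. Of 10 BMP ligand and antagonist genes, 4 were measured, and Fst was the 1 of these that was higher, whereas the other 3 were lower. Bmp2, a ligand gene, was lower by 1.97-fold (95% interval 1.82 to 2.13), with 52.7 CPM without FGF2, 26.2 at the lower dose and 13.3 at the higher dose. In cluster 0, where Bmp2 was highest (clusters are described last), it was at 49.4 CPM at the lower and 47.6 CPM at the higher dose. Its ratios in clusters 1 to 3 were 0.642, 0.358 and 0.85. By the split of differences given there, 14.1% of its difference lay within clusters. Bmp4 went from 58.1 to 44.2 CPM (ratio 0.762), and Bmp7 from 26.4 to 23.2 CPM (ratio 0.878). Genes that BMP signaling activates lay on the lower side for 7 of 8 measured members, but 1 alone passed 1.5-fold, the homeobox gene Msx2 (from 68.4 to 44 CPM). Their median log2 ratio was -0.28, against 0.02 over all 8036 genes with 10 CPM, of which 2.18% were lower by 1.5-fold. Id1, a widely used BMP target, had a ratio of 1.03, and Id2 one of 0.682 (from 264 to 179.9 CPM). Sprr2a3, a gene of the small proline-rich family of cornified epithelia, had 5.44 CPM with the FGFRi, 8.52 without FGF2, and 34.4, 106 and 115 at 0.75, 3 and 12 ng/ml. It was higher by 3.09-fold (95% interval 2.95 to 3.23), but it belongs to a cluster of near-identical genes, so reads may be divided among copies and the value is uncertain.

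Wnt ligand genes split in direction. Of 9 genes, 6 were measured, 1 in 1 library only, with 2 at least 1.5-fold higher at 3 ng/ml and 2 lower. The shares over all 8036 genes with 10 CPM were 1.08% higher and 2.18% lower. Wnt3a, the ligand of the posterior streak and tail bud, was at 4.54 CPM with the lower and 12.7 CPM with the higher dose (ratio 2.79), and Wnt5b was at 30.0 CPM with the lower and 55.4 CPM with the higher dose (ratio 1.85). Wnt6, expressed in surface ectoderm, had 172 CPM with the FGFRi, 126 without FGF2, and 106, 50.9 and 42 at 0.75, 3 and 12 ng/ml, and was lower at 3 ng/ml by 2.07-fold (95% interval 1.99 to 2.16). Wnt4, a ligand of epithelia and of the nephric lineage, had 145 CPM with the FGFRi, 134 without FGF2, and 80.3, 39.2 and 31.7 at 0.75, 3 and 12 ng/ml, and was lower by 2.05-fold (95% interval 1.95 to 2.14). Both thus had a lower level at each higher dose of FGF2, with a ratio of 0.838 for Wnt6 from no FGF2 to 0.75 ng/ml. Rspo3, which encodes an R-spondin that strengthens Wnt signaling, went from 216 to 410.5 CPM (ratio 1.9). Among 11 measured Wnt target and feedback genes, 1 was higher by 1.5-fold, the transcription factor gene Sp5 (from 57.9 to 88.5 CPM). Axin2, the common readout of Wnt/β-catenin signaling, was at 91.7 CPM with the lower and 90.1 CPM with the higher dose, and Lef1 had a ratio of 1.41.

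The next 10 genes upward, among those with at least 50 CPM, had ratios from 1.64 to 1.91. Besides Fgf17, Rspo3 and Wnt5b they held Cited1, which encodes a transcriptional coregulator (from 84.8 to 156 CPM), Grsf1, which encodes an RNA-binding protein (from 160.3 to 284 CPM), Limch1 (from 61.1 to 103 CPM), the small GTPase gene Rab8b (from 34.1 to 57.2 CPM), Evx1os, Hes7 and Igfbp3. The next 10 downward were lower by 1.7-fold to 1.91-fold. They held Klf6, a zinc finger factor gene (from 62.9 to 33 CPM), Krt8, the microtubule protein gene Map1b (from 199 to 109.9 CPM), and a set of genes for proteins of the actin cytoskeleton, Cnn2 (from 96.5 to 53.9 CPM), Pdlim7 (from 95.5 to 55.3 CPM) and Csrp1 (from 58.9 to 34.7 CPM). The imprinted gene Peg10 (from 252 to 142 CPM), which is needed in the placenta, and Nrk (from 111 to 64.4 CPM), a kinase gene of the trophoblast, were also lower, as were Wfdc2 (from 66.3 to 35.9 CPM) and Arl4c (from 77.6 to 44 CPM).

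Genes of presomitic mesoderm were higher at 3 ng/ml. Of 15 listed genes, 7 were measured, 1 in 1 library only, and 5 were at least 1.5-fold higher. By this ratio, 1.08% of all 8036 genes with 10 CPM were higher and 2.18% lower. Tbx6, the T-box gene that directs cells from the streak to paraxial mesoderm, had 0.23 CPM with the FGFRi, 5.86 without FGF2, and 11.5, 30.4 and 49 at 0.75, 3 and 12 ng/ml. It was higher by 2.64-fold (95% interval 2.44 to 2.86), and, unlike T, it was higher again at 12 ng/ml (ratio to 3 ng/ml 1.61). The Notch ligand genes Dll1 (from 20.0 to 46.9 CPM) and Dll3 (from 14.3 to 34.7 CPM) had ratios of 2.34 and 2.44. Hes7, a repressor gene of the segmentation clock, was at 56 CPM with the lower and 92.7 CPM with the higher dose, and Nrarp, a Notch feedback gene, at 22.1 CPM with the lower and 39.8 CPM with the higher dose. Of 11 Notch and segmentation clock genes, 8 were measured and 4 were at least 1.5-fold higher, Dll1, Dll3, Hes7 and Nrarp, while the receptor gene Notch1 had a ratio of 1.3 and Hes1, a common Notch target, one of 0.907. Pax3, a gene of the dorsal somite and neural plate border, was lower (from 22.5 to 17.1 CPM, ratio 0.761). Markers of formed somites were barely detected, with Meox1 at 0.17 and Tcf15 at 1.08 CPM with 3 ng/ml.

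Of 8 caudal epiblast genes, 6 were measured, 1 of them in 1 library only, and the median log2 ratio was 0.33. Cdx2, a caudal homeobox gene, was at 188 CPM with the lower and 218 CPM with the higher dose, higher by 1.16-fold (95% interval 1.13 to 1.19). The retinoic acid-degrading enzyme gene Cyp26a1, active in the tail bud, was at 20.7 CPM with the lower and 35.9 CPM with the higher dose (ratio 1.74). It and Wnt3a were the 2 members at least 1.5-fold higher, as were 1.08% of all 8036 genes with 10 CPM. Of 39 Hox genes, 25 were measured, 3 of them in 1 library only, and 0 differed by 1.5-fold, but 23 were higher at 3 ng/ml, with a median log2 ratio of 0.32. Over all 8036 genes with 10 CPM this median was 0.02, with quartiles of -0.08 and 0.10. The highest Hox levels were those of Hoxb9 (from 241 to 266 CPM) and Hoxc8 (from 150.3 to 162 CPM). These summed differences did not hold in every cluster (clusters are described last). In clusters 0 to 3, Hoxb9 had ratios of 1.44, 0.902, 1.16 and 0.875, and Hoxc8 of 1.34, 0.937, 0.938 and 0.929.

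**Figure D3:**
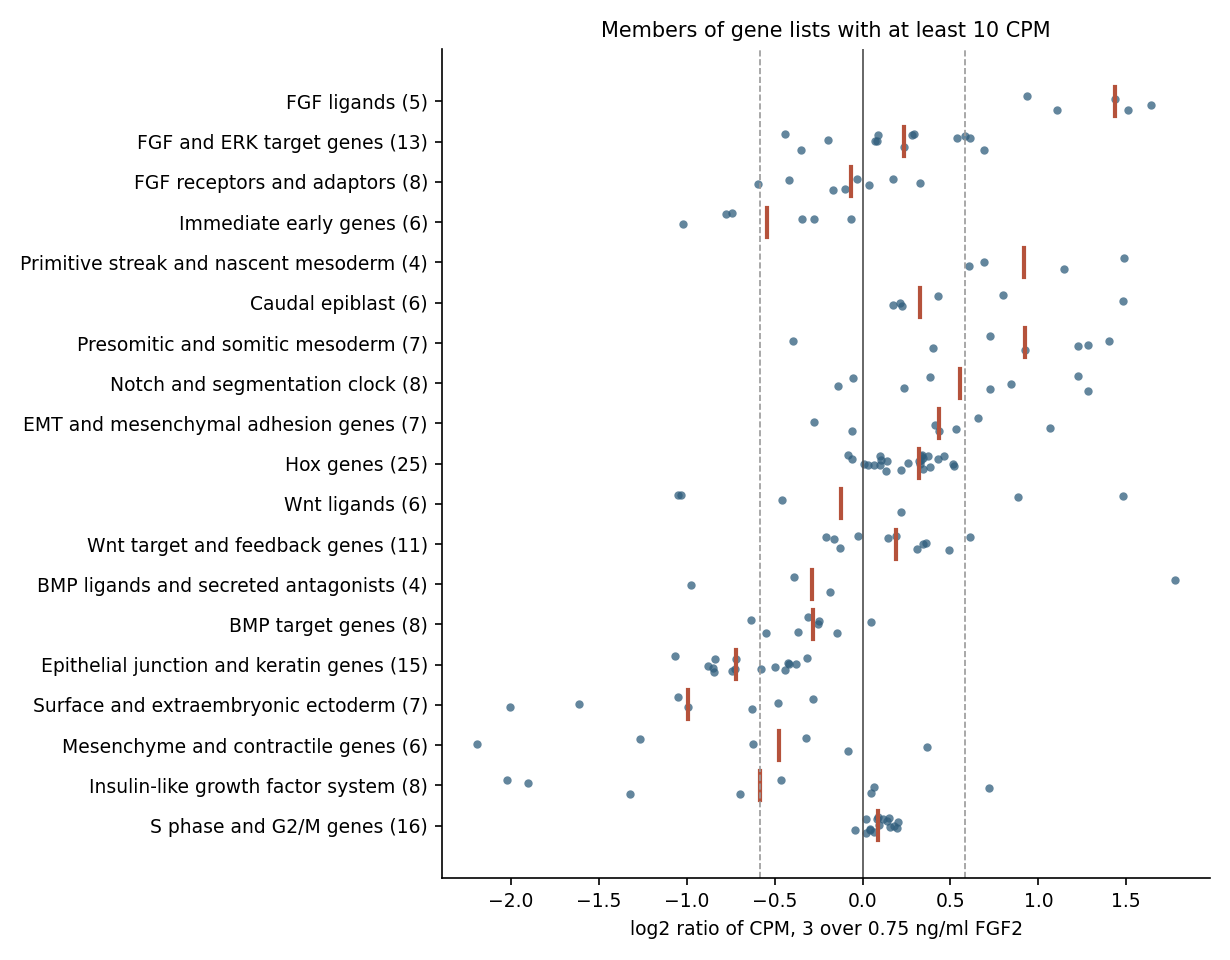
Log2 ratio of CPM, 3 over 0.75 ng/ml FGF2 (horizontal axis), for the members of 19 gene lists that reached 10 CPM in either library. Each blue point is a gene, the red bar is the median of the list, the number after each name counts the points and the dashed lines mark a ratio of 1.5 in either direction. All 5 FGF ligand genes lie to the right of the right dashed line, all 15 epithelial genes to the left of 0, and all 16 S phase and G2/M genes between the dashed lines.

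Genes of epithelial junctions and keratins were lower at 3 ng/ml. Of 20 listed genes, 15 were measured, 2 in 1 library only, and all 15 were lower, 8 of them by at least 1.5-fold, with a median log2 ratio of -0.72. Over all 8036 genes with 10 CPM, 2.18% were lower by 1.5-fold and the median log2 ratio was 0.02. Krt18, a keratin gene of simple epithelia, had 1349.8 CPM with the FGFRi, 1082 without FGF2, and 660.5, 316 and 305 at 0.75, 3 and 12 ng/ml, and was lower by 2.09-fold (95% interval 2.06 to 2.13). Krt8, which encodes the partner filament of Krt18, was at 599.6 CPM with the lower and 326 CPM with the higher dose and lower by 1.84-fold (95% interval 1.81 to 1.87). Cdh1 (E-cadherin) had 85.8 CPM with the FGFRi, 93.6 without FGF2, and 74.6, 45.3 and 39.7 at 0.75, 3 and 12 ng/ml, and was lower by 1.65-fold (95% interval 1.58 to 1.72). Epcam, an epithelial adhesion gene, went from 328 to 232 CPM (ratio 0.707), and the tight junction gene Cldn7 from 57.4 to 34.7 CPM. The keratin gene Krt19, at 23.3 CPM with the lower and 17.5 CPM with the higher dose, had a ratio of 0.748, and the desmosomal gene Dsp, at 174 CPM with the lower and 140.1 CPM with the higher dose, had the ratio nearest to 1 among the 15 (0.804).

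On the mesenchymal side, Cdh2 (N-cadherin) had 86.3 CPM with the FGFRi, 57.2 without FGF2, and 71.7, 113 and 122 at 0.75, 3 and 12 ng/ml, and was higher at 3 than at 0.75 ng/ml by 1.58-fold (95% interval 1.52 to 1.63). Snai1, which encodes a repressor of Cdh1 in EMT, was at 6.67 CPM with the lower and 14 CPM with the higher dose (ratio 2.09). Of 7 measured EMT and mesenchymal adhesion genes, 2 of them measured in 1 library only, these 2 alone passed 1.5-fold, while the matrix gene Fn1 was at 179 CPM with the lower and 259 CPM with the higher dose (ratio 1.45) and Mmp14, a membrane protease gene, was lower (ratio 0.824). Vim, an intermediate filament gene of mesenchyme, had a ratio of 1.29. As background for these and the next counts, 1.08% of all 8036 genes with 10 CPM were higher and 2.18% lower by 1.5-fold. Of 12 genes listed as mesenchyme and contractile, 6 were measured, 3 of them at least 1.5-fold lower at 3 ng/ml and 0 higher. The name of the list does not place these genes in cells with Cdh2. In the cadherin classes described below, Tagln at 0.75 ng/ml was at 159 CPM with Cdh1 alone and 53.9 CPM with Cdh2 alone. In the same classes Ahnak was at 246 and 41.7 CPM and Hspb1, named below, at 272 and 39.5 CPM, whereas Acta2 was at 16.9 and 31.2 CPM. Tagln, which encodes the actin-binding protein transgelin, had 1915 CPM with the FGFRi, 478 without FGF2, and 105, 22.9 and 42 at 0.75, 3 and 12 ng/ml, and was lower at 3 than at 0.75 ng/ml by 4.57-fold (95% interval 4.32 to 4.83), the steepest difference downward among genes with at least 50 CPM. It was also the gene whose level turned most at the next step, with a ratio of 1.83 from 3 to 12 ng/ml among the 13 genes. Ahnak, a large scaffold protein gene, had 704 CPM with the FGFRi, 313 without FGF2, and 137, 56.9 and 64.3 at 0.75, 3 and 12 ng/ml, and was lower by 2.41-fold (95% interval 2.32 to 2.5). Acta2 (smooth muscle actin), at 141 CPM without FGF2, was at 23 CPM with the lower and 14.9 CPM with the higher dose. After thinning to 10000 UMIs per cell, however, the share of cells with Acta2 was higher at 3 ng/ml (from 8.98% (7.93 to 10.1) to 11.6% (10.3 to 13.1), unthinned 19.6% and 24.5%, lowest share 1.3% in cluster 4 and 4.59% in cluster 0, at medians of 26264 and 28461 UMIs), and the count per positive cell was lower (2.07 and 1.38 UMIs). Hspb1, which encodes a small heat shock protein that binds actin filaments, had 749.8 CPM with the FGFRi, 342 without FGF2, and 149.7, 54.3 and 69.6 at 0.75, 3 and 12 ng/ml, and was lower by 2.76-fold (95% interval 2.66 to 2.86).

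Hand1, a basic helix-loop-helix gene of lateral plate and extraembryonic mesoderm, was at 45.9 CPM with the lower and 34.2 CPM with the higher dose, lower by 1.34-fold (95% interval 1.27 to 1.42). Of 13 transcription factor genes listed for these tissues, Hand1 and Twist1 (from 15.3 to 11.7 CPM) alone reached 10 CPM, and Gata6 was at 3.52 and 2.11 CPM. Of 10 hemato-endothelial genes, Lmo2 (from 12.1 to 19.5 CPM) and Runx1 (from 10.2 to 5.36 CPM) were measured and lay in opposite directions, while the endothelial receptor gene Kdr was at 0.135 and 0.279 CPM. Of the 8 cardiac and pharyngeal genes and of the 7 endoderm and notochord genes, 0 reached 10 CPM at either dose.

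Genes of surface and extraembryonic ectoderm were lower at 3 ng/ml for all 7 measured of 11 members, 2 of them measured in 1 library only, and 5 by at least 1.5-fold (median log2 ratio -1.0). Among all 8036 genes with 10 CPM, 2.18% were lower by 1.5-fold, and the median was 0.02. Trp63, the p63 gene of stratified epithelia, went from 12.1 to 3.00 CPM and was lower by 4.02-fold (95% interval 3.45 to 4.72). Tfap2a, an AP-2 transcription factor gene of surface ectoderm, had 93.3 CPM with the FGFRi, 47.6 without FGF2, and 36.1, 11.8 and 6.39 at 0.75, 3 and 12 ng/ml, and was lower by 3.07-fold (95% interval 2.83 to 3.33). Tfap2c (from 46.9 to 30.4 CPM) and Ascl2, a trophoblast gene (from 11.7 to 5.85 CPM), were lower as well. Genes of surface ectoderm and genes of simple epithelium were thus both lower, and in summed libraries fewer cells of a type cannot be told apart from less RNA per cell. Within the clusters described last, Trp63 had a ratio of 0.465 in cluster 0. Ratios in clusters 0 to 3 were 0.597, 0.367, 0.327 and 0.151 for Tfap2a, and 1.20, 0.773, 0.489 and 0.453 for Tfap2c. Ascl2 had ratios from 0.56 to 0.874 in these, and 1.35 in cluster 4, which held 24 cells at 3 ng/ml.

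The metallothionein genes Mt1 and Mt2, whose products bind zinc and copper, had nearly equal ratios. Mt1 had 564 CPM with the FGFRi, 319 without FGF2, and 214, 82.3 and 64.1 at 0.75, 3 and 12 ng/ml, and was lower at 3 than at 0.75 ng/ml by 2.6-fold (95% interval 2.52 to 2.68). Mt2 had 364 CPM with the FGFRi, 271 without FGF2, and 191, 73 and 46.7 at 0.75, 3 and 12 ng/ml, and was lower by 2.62-fold (95% interval 2.54 to 2.71). Both genes lie on the plus strand of chromosome 8, Mt2 at chr8:94172664-94173568 and Mt1 at chr8:94179082-94180327 (GRCm38). The 250 bases before their RefSeq starts (GRCm38.p6, chr8:94178839-94179088 for Mt1 and chr8:94172368-94172617 for Mt2) are shown because the pair had like ratios. Capitals mark matches, on either strand, to the metal response element, searched as TGCACNC or TGCGCNC.
Mt1: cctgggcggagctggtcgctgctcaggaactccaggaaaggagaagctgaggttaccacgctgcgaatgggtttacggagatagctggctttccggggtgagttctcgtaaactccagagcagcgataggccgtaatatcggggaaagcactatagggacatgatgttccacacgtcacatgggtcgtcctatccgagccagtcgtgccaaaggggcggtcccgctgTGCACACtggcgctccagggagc
Mt2: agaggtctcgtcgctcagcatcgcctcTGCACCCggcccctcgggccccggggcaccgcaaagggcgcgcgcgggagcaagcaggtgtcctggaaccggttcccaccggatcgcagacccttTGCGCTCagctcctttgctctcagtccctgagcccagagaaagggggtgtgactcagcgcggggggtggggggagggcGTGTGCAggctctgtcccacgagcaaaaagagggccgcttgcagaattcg
Mt1 holds 1 match in the stretch shown, 16 bases before its RefSeq start. Mt2 holds 3, the nearest 43 bases before its RefSeq start. These starts differ from the gene starts given above, and stretches before other starts were not searched. Of 32851 promoters of this length, 21.4% hold at least 1 such match and 5.17% at least 2.

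The summed levels were next resolved into shares of cells. To compare cells of different depth, each cell was thinned to 10000 UMIs, which left out 19 cells at the lower dose and 10 at the higher dose. The share of cells with a T UMI went from 33.7% (31.9 to 35.5) to 60.8% (58.6 to 62.8), a difference of 27.1 percentage points (95% interval 24.3 to 29.8). Without thinning it was 47.4% and 74.5%. Among cells with T, the mean number of T UMIs was 2.68 and 3.33, so both the share of positive cells and the count per positive cell were higher. Of the other libraries, 14.5% of cells had T without FGF2 and 65.7% at 12 ng/ml. As a background, the cluster with the lowest share (clusters are described last) had T in 2.6% of cells at 0.75 ng/ml, at a median of 26264 UMIs per cell. At 3 ng/ml the lowest share in a cluster of at least 50 cells was 23.9%, at a median of 28461 UMIs, in cluster 0, which is not known to lack T. Cluster 4, which had the lowest share at 0.75 ng/ml, held 24 cells at 3 ng/ml and fell under the limit of 50.

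Fgf8 behaved like T in this respect, with a share from 32.4% (30.6 to 34.2) to 56.7% (54.5 to 58.8) and 2.23 and 2.76 UMIs per positive cell. Its unthinned shares were 46.9% and 72%, and the same clusters had 1.3% and 24.5%. For Rspo3, the share went from 47% (45.1 to 48.9) to 72.1% (70.1 to 74) (unthinned 56.8% and 80.6%, lowest share 5.19% in cluster 4 and 28.7% in cluster 0). For Tbx6 it went from 9.05% (8.00 to 10.2) to 21.8% (20.1 to 23.6) (unthinned 16% and 36.1%). The lowest cluster differed between the doses. Tbx6 was in 0 of 77 cells of cluster 4 at the lower dose, which allows up to 3.9%, and in 3.44% of cells of cluster 0 at the higher dose. Fst was found in few cells, with a share from 5.62% (4.78 to 6.55) to 15% (13.5 to 16.6) (unthinned 10.3% and 23.5%) and 2.99 and 3.5 UMIs per positive cell. The share thus differed by 2.68-fold and the count in positive cells by 1.17-fold. In the lowest cluster at 0.75 ng/ml, Fst was found in 0 of 77 cells, which allows a share of up to 3.9%, and at 3 ng/ml the lowest share was 3.25% in cluster 0.

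Genes with lower levels differed in how their cells were distributed. The share of cells with Krt18 went from 62.3% (60.4 to 64.1) to 42.7% (40.6 to 44.9), with 9.69 and 6.98 UMIs per positive cell (unthinned shares 73.7% and 57%, lowest cluster 9.45% and 5.12%). Tagln was present in few cells at either dose, from 12.6% (11.4 to 13.9) to 4.78% (3.91 to 5.77) (unthinned 18.6% and 9.79%, lowest share 1.09% in cluster 3 and 0.688% in cluster 1). Cells with Tagln held 5.96 UMIs on average at the lower dose and 3.59 at the higher dose. Mt1 went from 38.1% (36.3 to 40.0) to 25.3% (23.5 to 27.3) (unthinned 52.7% and 40.2%, lowest cluster 9.82% and 8.95%), with 5.84 and 3.35 UMIs per positive cell. Share and count per positive cell were therefore both lower for each of these genes. For Tfap2a the share went from 23.8% (22.2 to 25.4) to 8.32% (7.18 to 9.58) (unthinned 39.2% and 16.7%), with 1.56 and 1.4 UMIs per positive cell. A positive cell holds at least a single UMI, so this count moves little for a gene with few UMIs. It does not show that levels per cell were alike. In cluster 0, Tfap2a was at 65.1 CPM at the lower and 38.9 CPM at the higher dose. In the lowest cluster, Tfap2a was found in 0 of 275 cells at 0.75 ng/ml, which allows up to 1.09%, and in 0 of 391 at 3 ng/ml, which allows up to 0.767%. The lowest cluster of Krt18 and Tfap2a at both doses was cluster 3, at medians of 26526 and 27856 UMIs per cell.

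**Figure D4:**
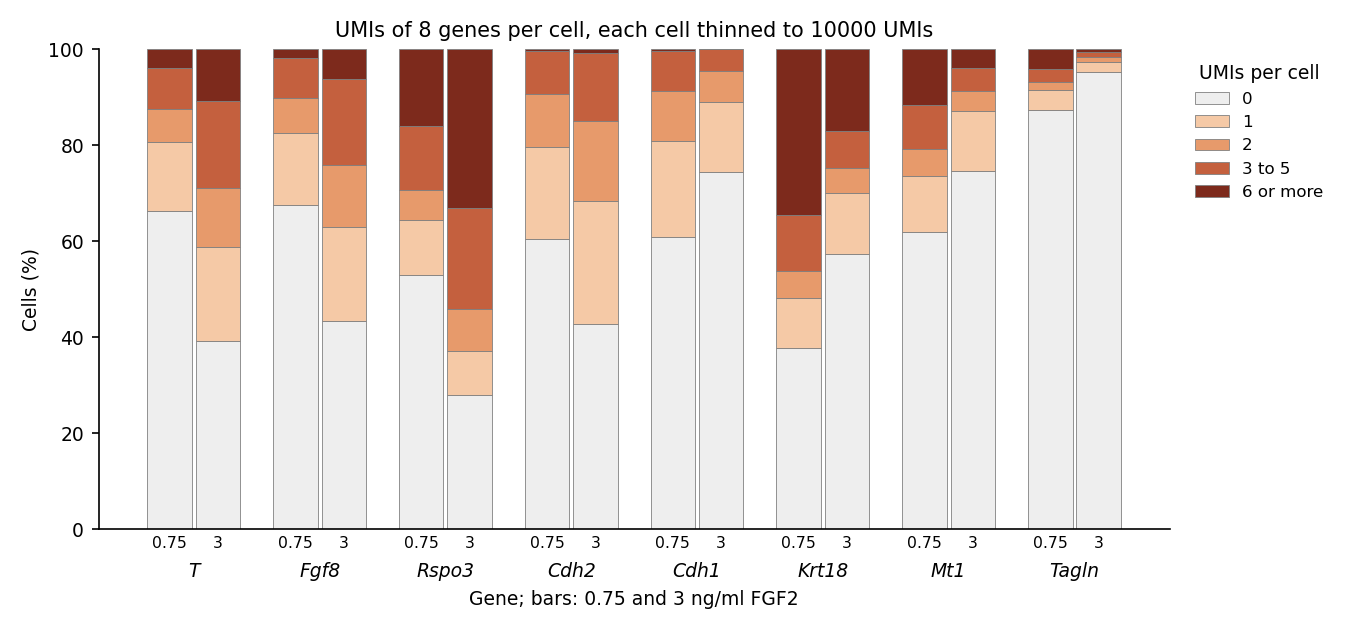
Cells (vertical axis, % of the cells of a library) with 0, 1, 2, 3 to 5 and 6 or more UMIs of 8 genes at 0.75 and 3 ng/ml FGF2 (paired bars), after each cell was thinned to 10000 UMIs. Darker colors stand for more UMIs. For T, the light part without a UMI covers 66.3% of cells at the lower dose and 39.2% at the higher dose, and the darkest part 3.95% and 10.7%.

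Cells were then classed by detection of both cadherin genes. Those with Cdh1 and without Cdh2 made up 34% (32.2 to 35.9) at 0.75 ng/ml and 18.8% (17.1 to 20.5) at 3 ng/ml, which is fewer by 15.3 percentage points at the higher dose. Those with Cdh2 and without Cdh1 made up 34.6% (32.8 to 36.4) and 50.4% (48.2 to 52.5), more by 15.8 points. Cells with UMIs of both genes went from 5.03% to 6.81%, and those with neither from 26.4% to 24.1%. A class without a UMI includes cells in which the gene was missed at this depth. The median depth per class lay between 27478 and 28364 UMIs at 0.75 ng/ml and between 27891 and 29138 at 3 ng/ml. Single shares went from 39.1% (37.2 to 40.9) to 25.6% (23.7 to 27.5) for Cdh1 and from 39.6% (37.7 to 41.5) to 57.2% (55 to 59.3) for Cdh2 (unthinned 55.4% and 42%, and 55.6% and 75.1%). In the lowest clusters, Cdh1 was found in 2.18% of cells at 0.75 ng/ml and in 1.53% at 3 ng/ml. Cdh2 was found in 0 of 77 cells of cluster 4 at 0.75 ng/ml (which allows up to 3.9%), and in 13.0% of cells of a different cluster at 3 ng/ml.

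T was higher at 3 ng/ml in all 4 classes, and its ratios were highest in the classes with Cdh1. In cells with Cdh1 alone, its level was 36.8 CPM at the lower dose and 127 CPM at the higher dose, a ratio of 3.44 (95% interval 3.18 to 3.72). In cells with Cdh2 alone, it was 139.9 and 222 CPM, a ratio of 1.59 (1.53 to 1.65). Cells with both cadherins had the highest level at either dose, 178 and 388 CPM. Of cells with a Cdh1 UMI, 16.7% also had T at the lower dose and 45.7% at the higher dose. Fgf8 followed the same order, with ratios of 4.19 in cells with Cdh1 alone and 1.51 in those with Cdh2 alone. The joint detection of T and Fgf8 in the same cell was 1.92 times the product of the single shares at 0.75 ng/ml and 1.27 times at 3 ng/ml, while that of Cdh1 and Cdh2 was 0.325 and 0.466 times. The highest quotient that can occur is lower where the single shares are higher, so these values are given as a description.

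Finally, the 4850 cells were clustered with the genes of all lists, the Hox genes and every gene differing by 1.5-fold or more between the libraries left out, so that clusters did not rest on the genes compared. Cluster 0 had Tagln, Rab25, Cryab and Cxcl12 as leading genes, cluster 1 Epha5, Greb1 and Cyp26a1, cluster 2 Fst, Sprr2a3 and Psmb8, and cluster 4 Ascl2 and Esx1. These clusters are kept as numbers. The 10 leading genes of cluster 0 also held Krt18 and Tfap2a. All 8 epithelium markers were at least 2-fold higher in cluster 0 than in the other cells (summed 3234 against 462 CPM). The same held for 7 of 9 surface and extraembryonic ectoderm markers (416 against 59.4 CPM) and for 2 of 6 mesenchyme markers (457 against 58.5 CPM). Summed levels of epithelial, surface ectoderm and mesenchyme markers were thus all higher in cluster 0. They do not show what share of its cells carried each kind. Cluster 3 had Tbx6, Dll1 and Dll3 among its 10 leading genes and is called presomitic mesoderm-like. Of 8 presomitic markers, 5 reached 10 CPM in cluster 3 and 4 were at least 2-fold higher than in the other cells. Msgn1, Meox1 and Tcf15 stayed below 10 CPM there. Markers of other types were higher there as well, namely Lmo2 of the hemato-endothelial list and 2 of 7 lateral plate and extraembryonic mesoderm markers. So were 2 of 7 primitive streak and nascent mesoderm markers and 1 of 4 neurectoderm markers. The name is therefore a loose one. Cluster 0 held 48.6% of cells at the lower dose and 24.7% at the higher dose, a difference of -23.8 percentage points (95% interval -26.4 to -21.2). Cluster 2 went from 9.17% to 21.3%, the presomitic mesoderm-like cluster from 10.1% to 18.5% and cluster 1 from 29.4% to 34.4%. Cluster 4 was small, with 77 and 24 cells (2.83% and 1.13%). The size of the largest change depended on how finely cells were divided, with values given in the closing part.

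**Figure D5:**
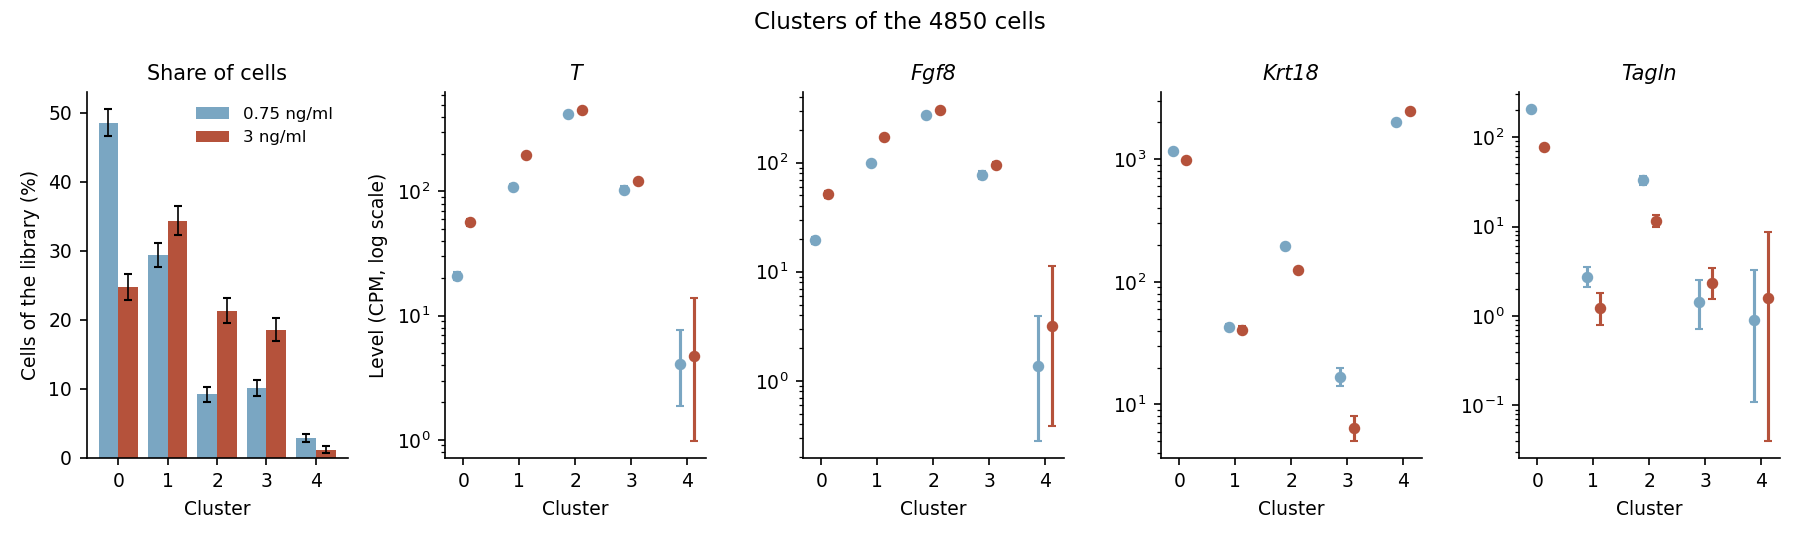
Share of the cells of a library (left panel, %) in each of 5 clusters at 0.75 (blue) and 3 ng/ml FGF2 (red), and levels of T, Fgf8, Krt18 and Tagln in the same clusters (other panels, CPM, log scale). Bars on the columns are exact binomial and bars on the points exact Poisson 95% intervals. Cluster 0 covers 48.6% of cells at the lower dose and 24.7% at the higher dose, T in cluster 0 is at 20.9 and 56.6 CPM, and Krt18 in the same cluster is at 1162 and 981 CPM.

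Within clusters, the ratio of T was highest in cluster 0 and nearest to 1 in cluster 2 among the 4 larger clusters. In cluster 0 its level was 20.9 CPM at the lower dose and 56.6 CPM at the higher dose, a ratio of 2.7 (95% interval 2.46 to 2.97). In cluster 1 the levels were 110 and 195 CPM, a wider difference in CPM than in cluster 0, and the ratio was 1.78 (1.7 to 1.87). In cluster 2, where T was highest, the levels were 418 and 454 CPM, a ratio of 1.09 (1.04 to 1.13), and in the presomitic mesoderm-like cluster it was 1.16. Fgf8 gave the same order, with ratios of 2.64, 1.71, 1.11 and 1.22 in clusters 0 to 3. Among clusters 0 to 3, Fst had its lowest ratio in cluster 2 (1.5), where its level was highest, and 5.68 in cluster 1, from 2.27 to 12.9 CPM.

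The difference in a summed level can be split into a part from levels within clusters and a part from the sizes of clusters. For T, the within-cluster part was 42.8% of the difference, for Fgf8 49.1% and for Fgf17 73.5%. For Krt18 it was 21.1% and for Krt8 6.26%, since Krt8 was at 1042 and 1025 CPM in cluster 0 at the respective doses. For Cdh1 and Cdh2 it was 13.2% and 20.0%. Most of the difference of these 4 epithelial and cadherin genes thus went with the sizes of clusters, while that of T, Fgf8 and Fgf17 had parts of both kinds. For Tagln it was 62.7%, with 203 and 76.5 CPM in cluster 0. Mt1 and Mt2 were highest in cluster 4, at 1621 and 1354 CPM for Mt1, and Mt1 in cluster 0 went from 313 to 185 CPM. For Hand1, the parts had opposite signs, with -20.7 CPM within clusters and 8.93 CPM from cluster sizes. The parts for Mesp1 also had opposite signs, with -1.43 CPM within clusters and 6.58 CPM from cluster sizes. Its ratios in clusters 0 to 3 were 3.1, 1.15, 0.897 and 0.613. The split depends on how finely the cells are divided, and other divisions were not tried for it.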

How the data were processed

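The authors made droplet single-cell libraries of the 10x Genomics 3′ kind, aligned the reads to mm10 with GENCODE vM23/Ensembl 98 annotation by Cell Ranger and deposited, per sample, a matrix of raw UMI counts for 32285 gene identifiers with its barcodes (the file headers name Cell Ranger 5.0.1). The strand setting of the counting and removal of doublets are not given in the sources used here. From these counts, cells with at least 2500 genes and at most 10% mitochondrial UMIs were kept, as in the study, UMIs were summed per gene and library, and CPM, exact Poisson intervals, exact conditional intervals of ratios, exact binomial (Clopper-Pearson) intervals of shares and Newcombe intervals of their differences (all 95%) were computed with Python 3.11.15, NumPy 2.4.6, SciPy 1.17.1 and pandas 2.3.3. With 1 library per dose no test was made, and intervals cover counting error only.

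Named genes were those that reached 50 CPM at either dose and differed by 2-fold or more, and the next 10 in each direction. From each of 35 gene lists, members with at least 10 CPM and a ratio of at least 1.5 were added, or else the 2 with the highest mean CPM, as were T, Tbx6, Hand1, Cdx2, Cdh1 and Cdh2. Other list members named for contrast were chosen after their values were seen. Some genes that the rule selects are not reported here. The comparison, the lists and the members were chosen with earlier results of these data known.

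For shares, cells were thinned to 10000 UMIs with a fixed seed. Clusters were built with Scanpy 1.11.5 and leidenalg 0.10.2 (50000 UMIs per cell, logarithm, total count and mitochondrial share regressed out, values clipped at 10, 50 components, 15 neighbors, resolution 0.33) on 1386 of 2285 variable genes. Scrublet marked 17 of 4850 cells (0.351%), too few to trust as a doublet call, and these stayed in. Positions and promoters are of GRCm38, promoters from RefSeq, with 10 of the 13 genes of at least 2-fold in the promoter table. The ratio rule, the thinning and the intervals were tested on simulated data, and the clustering was not. Alternatives changed the minimum CPM, the ratio, the filters on cells, the scaling (TMM of edgeR 4.0.16 and median of ratios), the weight of cells, doublets, the thinning and the clustering.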

Additional observations from a re-analysis of the deposited data

How the results depend on the processing

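Counts of genes depended on the limits that define them. The 4 genes higher and 9 lower at 3 ng/ml became 27 and 42 with a minimum of 10 CPM, 913 and 1005 with no minimum, and 20 and 37 with a ratio of 1.5. They stayed at 4 and 9 with at most 5% mitochondrial UMIs, without a filter on cells, under both other scalings, with every cell weighted alike and without cells marked as doublets. Several of these settings changed the input little. Retained cells carried 97.0% and 96.8% of the UMIs, the scaling factors of the compared libraries lay between 0.996 and 1.014, and 17 of 4850 cells were marked as doublets. The log2 ratio of T (1.14) ranged from 1.13 to 1.17 and the median of FGF and ERK target genes (0.24) from 0.22 to 0.29. The gain in T-positive cells of 27.1 points was 21.0 after thinning to 5000 UMIs and 21.9 with at least 2 UMIs. The difference in cells with Cdh1 alone of -15.3 points was -10.3 after thinning to 5000 UMIs, -17.8 without thinning and -8.34 with at least 2 UMIs, and that in cells with Cdh2 alone of 15.8 points was 10.4 after thinning to 5000 UMIs and 11 with at least 2 UMIs. The largest change in the share of a cluster, -23.8 points, was -13.2 at a resolution of 0.5 and -14.1 with all variable genes, and it turned to 8.52 at a resolution of 1 and to 12.5 with 30 principal components. In these settings cluster 0 was divided, and the clusters made mostly of its cells changed together by -22.9, -26.1, -23.0 and -24.2 points. No library could be left out, since each dose has 1. No paired analysis was possible because each group holds a single library. The depth allows small counts to be seen, since 3 UMIs equal 0.0368 and 0.0464 CPM in the libraries compared, but the spread between cultures was not measured.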

Other observations

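Genes of insulin-like growth factor (IGF) signaling and of the imprinted growth loci, which control fetal size, were lower at 3 ng/ml in 4 of 8 measured of 9 members by at least 1.5-fold and higher in 1 (1 member was measured in 1 library only). Among all 8036 genes with 10 CPM, 2.18% were lower and 1.08% higher by that ratio. H19, an imprinted noncoding RNA, was at 14.6 CPM with the lower and 3.59 CPM with the higher dose, lower by 4.06-fold (95% interval 3.53 to 4.69), and its neighbor Igf2, which encodes the growth factor, was at 155 CPM with the lower and 95.3 CPM with the higher dose (ratio 0.615). Igfbp5, which encodes an IGF-binding protein, was at 40.7 CPM with the lower and 10.9 CPM with the higher dose, lower by 3.74-fold (95% interval 3.44 to 4.06). Igfbp2 had 1441 CPM with the FGFRi, 135 without FGF2, and 60.0, 23.9 and 16.1 at 0.75, 3 and 12 ng/ml, and was lower by 2.5-fold (95% interval 2.36 to 2.65), whereas Igfbp3 was higher (from 53.5 to 88 CPM). Binding protein genes therefore lay on both sides. Nodal pathway genes were at low levels, with Lefty1 and Lefty2, which encode secreted Nodal inhibitors, the 2 measured of 9 members. Each reached 10 CPM only at 3 ng/ml, the library in which it was higher. Lefty1 was at 8.38 CPM with the lower and 18.6 CPM with the higher dose and Lefty2 at 6.75 CPM with the lower and 10.9 CPM with the higher dose. Of 12 retinoic acid genes, 6 were measured, with a median log2 ratio of -0.02.

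Glycolytic and glucose transport genes were higher for 12 of 14 measured of 16 members, 0 of them by 1.5-fold, with Ldha (lactate dehydrogenase A) at 776 CPM with the lower and 1098 CPM with the higher dose and a median log2 ratio of 0.27. Over all 8036 genes with 10 CPM, the background for the counts in this paragraph, this median was 0.02, with quartiles of -0.08 and 0.10. By 1.5-fold, 1.08% of all these genes were higher and 2.18% lower. The glucose transporter gene Slc2a3 lay on the other side (from 899.7 to 609 CPM). All 16 S phase and G2/M genes were within 0.970-fold to 1.15-fold, among them Top2a, a topoisomerase gene of dividing cells (from 478 to 550.4 CPM). Of 9 cyclin D and CDK inhibitor genes 5 were measured and 0 differed by 1.5-fold. Neither did any of 9 measured p53 target genes or of 7 measured collagen and laminin genes, although these 7 were all lower. Of 14 interferon and antigen presentation genes, 8 were measured, 1 in 1 library only, and 2 were higher by 1.5-fold, Isg15 (from 6.05 to 15.9 CPM) and the immunoproteasome gene Psmb8 (from 11.6 to 19.6 CPM). In cluster 2, where Psmb8 was highest, it was lower at 3 ng/ml (from 90.9 to 68.8 CPM), while its ratios in clusters 0, 1 and 3 were 1.61, 1.44 and 1.42. Chac1, which encodes a glutathione-degrading enzyme of the unfolded protein response, was the 1 of 4 measured stress genes that was higher by 1.5-fold (from 5.73 to 11.3 CPM). Of 9 measured Eph and ephrin genes, Efnb2 alone differed by 1.5-fold (from 16.5 to 10.4 CPM, lower). In the epiblast list, Pou5f1 (Oct4, from 7.05 to 10.7 CPM) was the 1 of 6 measured genes higher by 1.5-fold, 0 were lower, and the median log2 ratio was 0.17. Irx3, the 1 measured neurectoderm gene, was lower (from 15.6 to 10.1 CPM), and Kit, the 1 measured germ cell gene, had a ratio of 0.777 (from 19 to 14.8 CPM).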
